A study of Arabidopsis thaliana with 58 samples.

Results

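The data described here are 6 ChIP-seq peak lists from wild-type (WT, ecotype Col-0) Arabidopsis thaliana seedlings, 3 from an antibody against dimethylated lysine 4 of histone H3 (H3K4me2) and 3 from an antibody against the trimethylated form (H3K4me3). They were chosen as all lists of these 2 marks in WT, which makes 6 of the 58 samples and 110350 of the 430955 peaks of the series. The seedlings were whole plants of 9 days under constant white light, and carried no mutation or treatment. The 3 libraries of a mark are described as biological replicates. Mark and antibody go together, so a difference between the marks and a difference between the antibodies cannot be told apart. Levels of RNA come from 3 libraries of pkl seedlings of the same age, mutants of PICKLE (PKL), a chromatin remodeler of the CHD3 type. These are levels in that mutant, not in WT, wherever they appear below.

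Histone H3 lysine 4 is methylated in steps by SET-domain enzymes such as ATX1 and SDG2, and the methyl groups are taken off by LSD1-like and JmjC-type demethylases. H3K4me3 is known from plants, animals and yeast as a mark of the 5′ part of transcribed genes. H3K4me2 lies next to it in the gene, and in plants it is also known from genes that are little transcribed. In whole seedlings, peaks of both marks over a gene can come from the same cells or from different cells, and fewer marked cells and less mark per cell cannot be told apart. RNA of the pkl seedlings held both leaf and root transcripts: RCA, the activase of the carbon-fixing enzyme Rubisco, had 6609 FPKM (fragments scaled by exon length and library size), and EXPA7, a root hair expansin, had 19.9 FPKM. The other root markers foreseen, SHV2 (COBL9) and PLT1, were lower, at 5.03 and 0.782 FPKM. EXPA7 had 0 bp of either mark in each WT library.

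H3K4me2 was called in more and weaker peaks than H3K4me3. The H3K4me2 lists held 20594, 20310 and 19880 peaks in replicates 1, 2 and 3, and the H3K4me3 lists 16413, 16514 and 16639. The genome covered was 15.3, 13.6 and 13.9 Mb for H3K4me2 against 12.9, 12.5 and 12.2 Mb for H3K4me3. In both measures all H3K4me2 libraries lay above all H3K4me3 libraries. The median fold enrichment of a peak, the authors' value, was 2.96, 2.79 and 2.82 for H3K4me2 and 5.87, 5.65 and 5.78 for H3K4me3. The two-sided exact permutation test over the 20 splits of 3 against 3 libraries gave p = 0.1 for each of these 3 differences, the smallest p it allows. How deeply the ChIP libraries were sequenced is not known. The order of peak number and of Mb turned round when peaks of −log10 q of at least 10 alone were kept.

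The peaks of the 2 marks were of similar width, but the narrow ones belonged to H3K4me2. The median width was 702, 634 and 659 bp for H3K4me2 and 729, 700 and 679 bp for H3K4me3, so the groups overlapped (exact permutation p = 0.3). The 10% narrowest peaks ended at 321, 277 and 304 bp for H3K4me2 and at 436, 411 and 385 bp for H3K4me3, with no overlap between the marks (p = 0.1, exact permutation test). Peaks over 1500 bp made up 2.52 ± 0.653% of H3K4me2 and 3.62 ± 0.601% of H3K4me3 peaks (mean ± SD, n = 3). The order of the median widths was the other way round among peaks of −log10 q of at least 10 and among the 15000 strongest peaks of each library.

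The marks differed in where they stood relative to the gene start. A peak lay over an annotated gene start in 58.1, 53.0 and 48.4% of H3K4me3 peaks, against 21.6, 18.5 and 19.4% of H3K4me2 peaks. The median distance from the gene start to the peak summit was 267, 260 and 255 bp for H3K4me3 and 418, 414 and 420 bp for H3K4me2. Neither measure overlapped between the marks (exact permutation p = 0.1 for each). Summits within the first 500 bp of a gene made up 84.7 ± 0.459% for H3K4me3 and 53.1 ± 0.0366% for H3K4me2. Between 500 and 1500 bp lay 9.84 ± 0.417% and 36.2 ± 0.310%. Summits upstream of the start made up 4.102 ± 0.0438% of H3K4me3 and 7.09 ± 0.172% of H3K4me2 summits. Peaks over a gene end made up 3.93 ± 0.558% of H3K4me3 and 3.43 ± 0.236% of H3K4me2 peaks, and these 2 groups overlapped (exact permutation p = 0.2).

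Along genes that carried both marks, H3K4me3 began at the gene start and H3K4me2 began inside the gene and reached further. Cover was averaged over 7195 protein-coding genes of at least 2000 bp that overlap no other gene. At the start itself 54.5 to 63.8% of these genes lay under an H3K4me3 peak in the 3 libraries, and 16.3 to 19.8% under an H3K4me2 peak. At 100 bp the shares were 88.1 to 90.2% and 43.5 to 49.0%. Cover was highest at 300 bp for H3K4me3 (95.1 to 96.0% of genes) and at 550 bp for H3K4me2 (85.7 to 88.9%). The marks covered like shares at 500 bp, 85.4 to 88.9% for H3K4me3 and 85.4 to 88.4% for H3K4me2. Further in, the order was reversed, and at 1000 bp 16.3 to 18.18% lay under H3K4me3 against 38.6 to 46.1% under H3K4me2. Upstream, at 200 bp before the start, cover was down to 8.12 to 9.35% for H3K4me3 and 3.27 to 3.93% for H3K4me2.

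**Figure D1:**
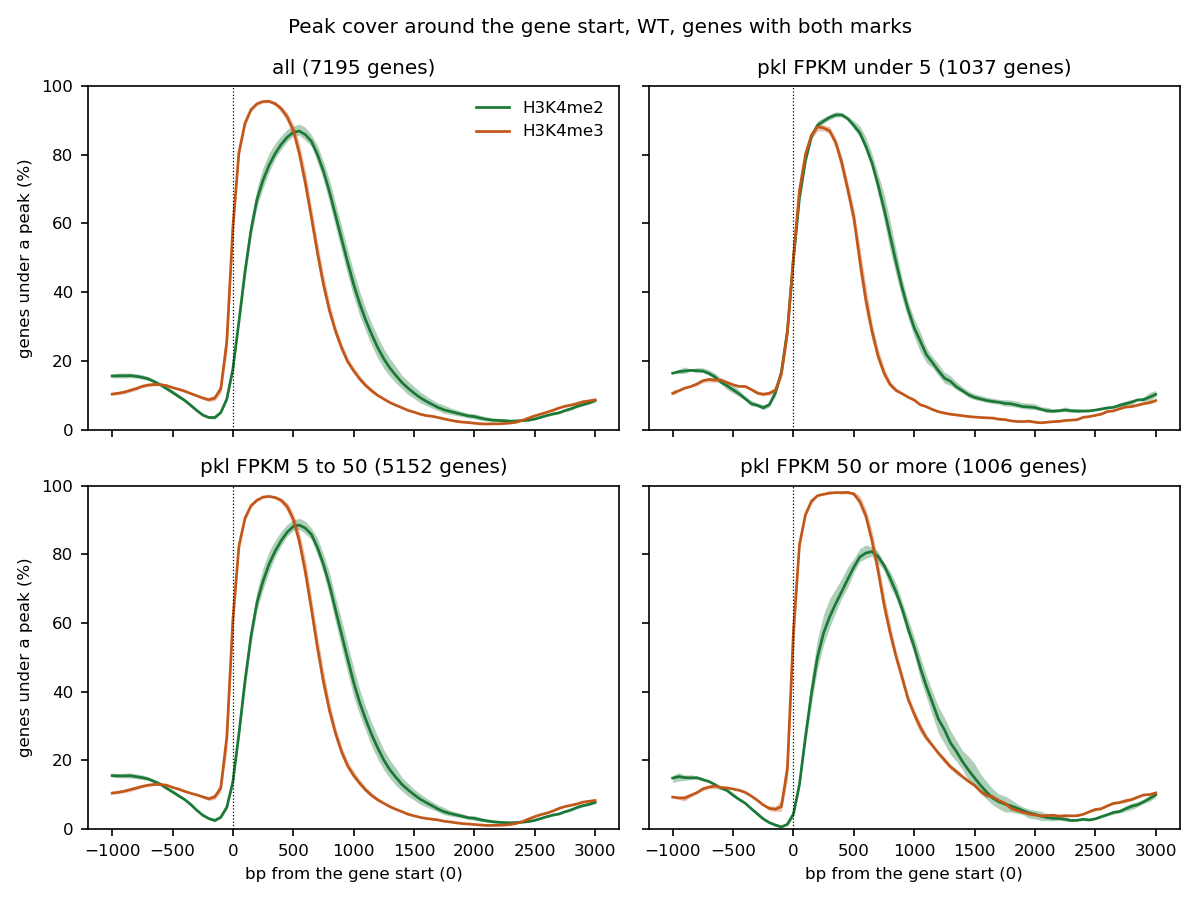
Share of genes under a peak (y axis, %) at each distance from the gene start (x axis, bp, downstream to the right) in genes with both marks, for all 7195 genes and for 3 ranges of FPKM in pkl seedlings. Lines are means of 3 libraries and bands run from the lowest to the highest library; over all genes, H3K4me3 is highest at 300 bp and H3K4me2 at 550 bp.

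The place of H3K4me2 differed with the RNA level of the gene. In 1037 genes under 5 FPKM, H3K4me2 cover was highest at 350, 400 and 350 bp in replicates 1, 2 and 3, and H3K4me3 cover at 200, 200 and 250 bp. In these genes both marks began at the gene start, with cover of at least 50% of the top from 0 bp on. In 1006 genes of 50 FPKM or more the tops were at 600, 650 and 650 bp for H3K4me2 and at 450, 400 and 350 bp for H3K4me3. There H3K4me2 reached the level of 50% of its top at 150, 200 and 200 bp, while H3K4me3 still did so at 0 bp. The 5′ side of H3K4me2 was thus further inside the gene at higher RNA levels, and that of H3K4me3 was at the start in each range.

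Gene by gene, H3K4me2 lay 3′ of H3K4me3 in most cases. The place of a mark was taken as the mean position of the bp under its peaks, over the gene with 500 bp upstream, in the 14607 genes with at least 150 bp of each mark in all 6 libraries. Its median over genes was 516.5, 503.5 and 515 bp from the start for H3K4me2 and 344, 338.5 and 336.5 bp for H3K4me3. H3K4me2 lay further 3′ in 10070 genes, 68.9% of those tested, and further 5′ in 660 genes, 4.52% (limma on mean positions, two-sided, Benjamini-Hochberg adjusted p below 0.05). All 3 H3K4me2 values were beyond all 3 H3K4me3 values in the 3′ direction in 10807 genes, 74%, and in the 5′ direction in 982 genes, 6.72%. The median difference was 163.7 bp, and the middle 50% of genes lay between 64.7 and 260.6 bp. Among the 15000 strongest peaks of each library, fewer genes carried both marks. Of the 9317 tested there, 6246 (67.0%) lay further 3′ and 548 (5.88%) further 5′.

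Both edges of H3K4me2 were displaced, the 3′ edge more. Over the 14607 genes the 5′ edge stood at a median of 63, 78 and 83 bp inside the gene for H3K4me2 and at -26, -18 and -12 bp, just upstream of the start, for H3K4me3. The 3′ edge stood at 946, 894 and 914 bp against 724, 707 and 695 bp. Both edges of H3K4me2 lay over 100 bp 3′ of those of H3K4me3 in 4691 genes (32.1%). In 4084 genes (28.0%) the 5′ edges were within 100 bp of each other and H3K4me2 reached further 3′. H3K4me2 reached past H3K4me3 on both sides in 895 genes (6.13%) and lay inside it on both sides in 415 (2.84%). The marks lay fully apart in all libraries, with H3K4me2 on the 3′ side, in 19 genes (0.130%).

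The 3′ edges of both marks followed the length of the first exon. In genes of at least 2000 bp with introns, the H3K4me3 edge went from 633, 608 and 600 bp where the first exon was under 200 bp (1898 genes) to 1014.5, 961 and 982.5 bp where it was at least 1000 and under 1500 bp (322 genes). The H3K4me2 edge went from 888, 834 and 868 bp to 1328.5, 1260 and 1272 bp between the same classes. In each class all H3K4me2 libraries lay beyond all H3K4me3 libraries, and the median shift of the mean position stayed between 191 and 248 bp. The 5′ edges moved little, from 59 to 114.5 bp for H3K4me2 and from -39 to -3 bp for H3K4me3 over all libraries and classes. In first exons of 1500 bp or more (227 genes) the H3K4me3 edge was lower again, at 879, 841 and 834 bp, and the H3K4me2 edge was at 1448, 1288 and 1366 bp. Exons are those of all annotated transcripts merged, and no test was made between these classes.

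**Figure D2:**
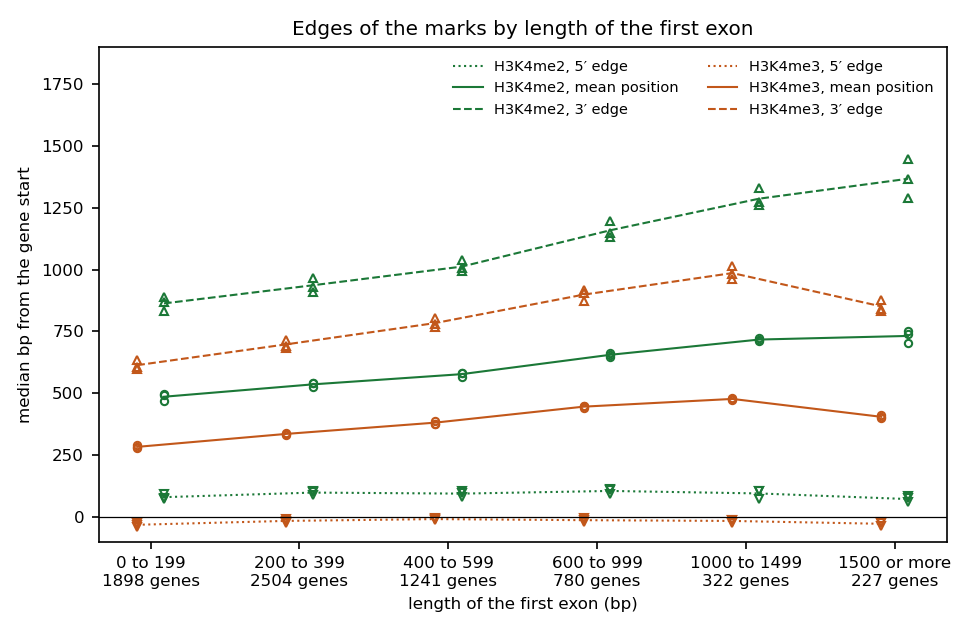
Median distance from the gene start (y axis, bp) of the 5′ edge, mean position and 3′ edge of each mark, by length of the first exon (x axis). Symbols are the 3 libraries of a mark and lines their means; the 3′ edges lie further in with longer first exons, up to the class of 1000 bp, while the 5′ edges stay near the start.

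The shift differed between classes of gene length, which were not tested against each other. In genes under 1000 bp (839 genes with both marks) the median shift was 8.17 bp, with 25.1% further 3′ and 8.82% further 5′. In genes of 8000 bp or more (192 genes) it was 246 bp, with 91.1% and 1.56%. The RNA level was related to the shift as well. Its median was 135 bp under 5 FPKM, 176 bp from 5 to 50 FPKM and 157 bp from 50 to 500 FPKM. In 103 protein-coding genes of 500 FPKM or more it was -37.7 bp, with 23.3% of genes further 3′ and 34.0% further 5′, so the usual order of the marks did not hold there. Genes with much RNA were also short, with a median of 1629 bp at 200 to 1000 FPKM and 1282 bp at 1000 FPKM or more. In genes with both marks of 1000 to under 2000 bp (3469 genes) the median shift was 125 bp. Gene length and RNA level were not separated here.

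The largest 3′ shifts were found in long genes, and the 8 genes named were picked for that size, so their values are a description. CalS7 (chromosome 1, 1978762 to 1989409, TAIR10), a callose synthase of the phloem, had its H3K4me2 at a mean position of 5279, 4777 and 3909 bp and its H3K4me3 at -104, -129 and -148 bp. Most of its H3K4me3 therefore lay upstream of the annotated start, with 45, 0 and 55 bp in the gene. GSL04 (chromosome 3, 4892643 to 4902628), a second callose synthase gene, had H3K4me2 at 4617, 3310 and 3833 bp and H3K4me3 at 123, 77.5 and 100 bp. In both genes the 3 values of one mark were far from those of the other, and the H3K4me2 libraries differed by over 1000 bp among themselves.

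ATML1 (chromosome 4, 11555186 to 11560733), a homeodomain factor of epidermal identity, held the marks at opposite ends: H3K4me2 was at 4590, 4603 and 4596.5 bp and H3K4me3 at 959, 1096 and 1062 bp. HB-7, another homeodomain gene, had H3K4me2 at 3727 to 3788 bp and H3K4me3 at 397.5 to 453.5 bp. In RLP35, a receptor-like protein gene, H3K4me2 stood at 2745 to 2758 bp, within the last part of a gene of 2873 bp. It reached the last base of the gene in all 3 libraries, and bp past the gene end were not counted. The peak may therefore not be particular to RLP35. NRT1.7, a nitrate transporter of the phloem, and ABCC3, an ABC transporter, had shifts of 2390 ± 404 and 1943 ± 112 bp (SE). TOPII, a topoisomerase that untangles DNA in dividing cells, had 2733, 2876 and 2186 bp under H3K4me2 and 561, 616 and 444 bp under H3K4me3, centred at 2178 to 2430 bp and at 386.5 to 553 bp. Distances from these peaks to neighbouring genes were not tested.

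Shifts in the 5′ direction were fewer, and in these 6 genes the mean position of H3K4me3 lay well inside the gene. A mean position can combine separate stretches. By the 5′ edge alone, H3K4me2 began downstream of H3K4me3 at GCT and NRPA2. ROPGEF11, an activator of ROP GTPases (chromosome 1, 19455766 to 19459586), had H3K4me2 at 280.5, 280 and 287.5 bp and H3K4me3 at 3439, 2333 and 3554 bp. In replicates 1 and 3 its H3K4me3 reached the last base of the gene, and bp past the gene end were not counted. ABCG40, a transporter that takes up abscisic acid, had H3K4me2 at 3262, 3498 and 3672 bp and H3K4me3 at 5735, 5744 and 5746.5 bp of a gene of 6469 bp. In GCT, which encodes a Mediator subunit, H3K4me2 stayed near the start at 576 to 681.5 bp while H3K4me3 averaged 2623 to 2752 bp. NRPA2, the second largest subunit of RNA polymerase I, RPS6, a disease resistance gene, and ADAP, an AP2-type factor, had shifts of -1868 ± 376, -1611 ± 313 and -1270 ± 31.9 bp (SE). For ABCG40 and ADAP the 3′ edge of H3K4me2 lay 159 and 30.3 bp further 3′ than that of H3K4me3, so the direction held for the mean position but not for that edge.

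**Figure D3:**
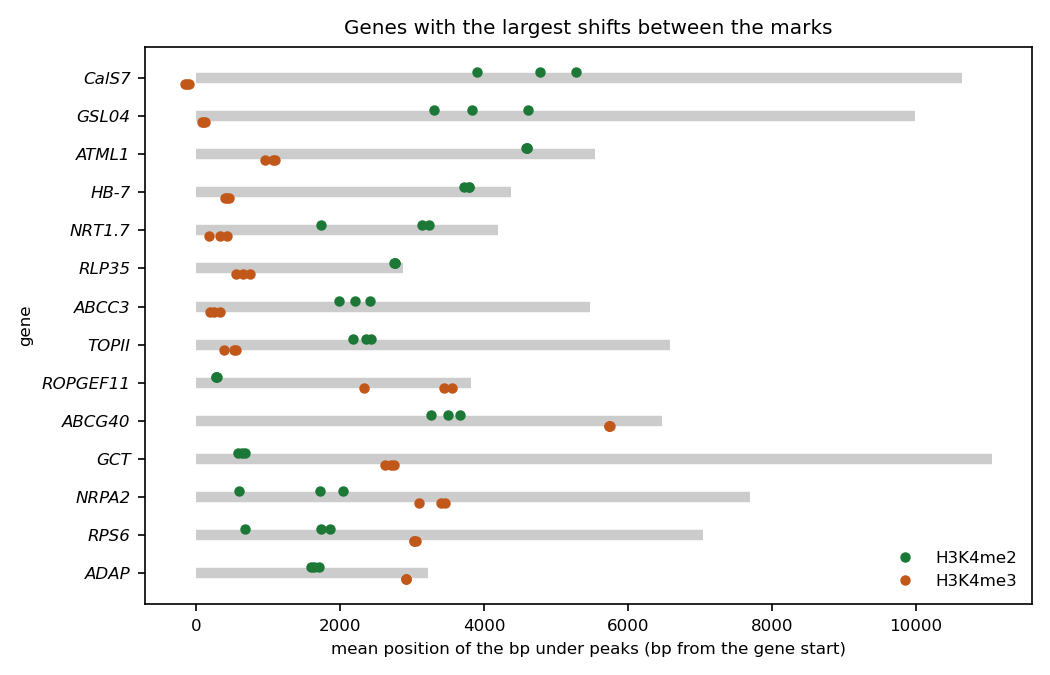
Mean position of the bp under peaks (x axis, bp from the gene start) in the 8 genes with the largest 3′ shift and the 6 with the largest 5′ shift of H3K4me2 (y axis). Points are single libraries and grey bars the gene lengths; the 3 points of one mark lie on one side of the 3 of the other in each gene, as the choice requires.

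Most of what one mark covered was also covered by the other, more so for H3K4me3. Of the H3K4me3 peaks, 91.2 ± 0.132% were overlapped by an H3K4me2 peak, against 97.8 ± 0.127% by an H3K4me3 peak of another replicate. Of the H3K4me2 peaks, 77.2 ± 0.677% were overlapped by H3K4me3 and 93.2 ± 1.505% by H3K4me2 of another replicate. In bp, 68.3 ± 0.602% of H3K4me3 and 60.1 ± 1.62% of H3K4me2 lay under the other mark. The Jaccard index, shared bp over all bp, was 0.460 to 0.481 between marks, 0.752 to 0.762 within H3K4me2 and 0.878 to 0.890 within H3K4me3. The order of the overlapped shares rests on the peaks kept: among peaks of −log10 q of at least 10 the share was higher for H3K4me2 by 29.3 percentage points, and among the 15000 strongest peaks by 1.75 points.

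Peaks that met no peak of the other mark in any library numbered 4408, 4147 and 3991 for H3K4me2 and 770, 765 and 810 for H3K4me3. H3K4me2 peaks overlapped by H3K4me3 had a median width of 726 ± 38.2 bp, and those without it 424 ± 21.03 bp. For H3K4me3 the widths were 710 ± 24.2 and 592 ± 34.8 bp. The H3K4me2 peaks without H3K4me3 were hence the narrow ones, while their fold enrichment was much like that of the rest (2.69 ± 0.00970 against 2.88 ± 0.118, the authors' values).

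Among the 33331 nuclear genes, 14069 (42.2%) carried both marks and 13051 (39.2%) neither, where carrying means at least 150 bp under peaks within the gene in all 3 libraries. H3K4me2 was found in all 3 libraries and H3K4me3 in none in 2356 genes (7.07%), and the reverse in 587 (1.76%). Another 929 genes had H3K4me3 in all 3 libraries and H3K4me2 in 2, and 483 had it in 1. The H3K4me3-only class therefore depends on how weak an H3K4me2 peak may be: among peaks of −log10 q of at least 10 it held 6031 genes and the H3K4me2-only class 1379, and with 15000 peaks a library the counts were 2279 and 2289. Of the 587 genes, 519 stayed in the class with 15000 peaks a library, and of the 2356 genes 1492 did.

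The classes differed in RNA level. Protein-coding genes with H3K4me2 only had medians of 0.698, 0.708 and 0.775 FPKM in the 3 pkl libraries, and those with H3K4me3 only 64.3, 62.1 and 66.0 FPKM. Genes with both marks lay between, at 15.4, 15.96 and 16.3 FPKM. Under 1 FPKM were 55.2% of genes with H3K4me2 only, 2.05% of those with both and 1.28% of those with H3K4me3 only. At 100 FPKM or more were 0.270, 6.90 and 42.8%. Genes with neither mark were lower still, with a median of 0 FPKM in each library and 74.4% of them under 1 FPKM.

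Read the other way, from RNA level to mark, H3K4me2 was more frequent than H3K4me3 on genes under 1 FPKM. Both marks were frequent on moderately expressed genes, and above that the share with H3K4me2 fell. H3K4me2 marked 25.7 ± 1.09% of protein-coding genes under 1 FPKM, 89.3 ± 0.934% at 20 to 50 FPKM and 47.6 ± 6.15% at 1000 FPKM or more (mean ± SD, n = 3 libraries). H3K4me3 marked 5.02 ± 0.104, 94.3 ± 0.0352 and 97.3 ± 0.589% in the same ranges. Mean bp under H3K4me2 peaked at 701 ± 38.2 bp from 5 to 20 FPKM and came down to 262 ± 46.5 bp at 1000 FPKM or more, while bp under H3K4me3 went up at each step, from 21.7 ± 0.220 to 1139 ± 25.6 bp. The ratio of H3K4me2 to H3K4me3 bp went from 7.15 to 0.230 across the 7 ranges. The highest range holds 98 genes, which are also short, with a median of 1282 bp against 2374 bp at 20 to 50 FPKM.

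**Figure D4:**
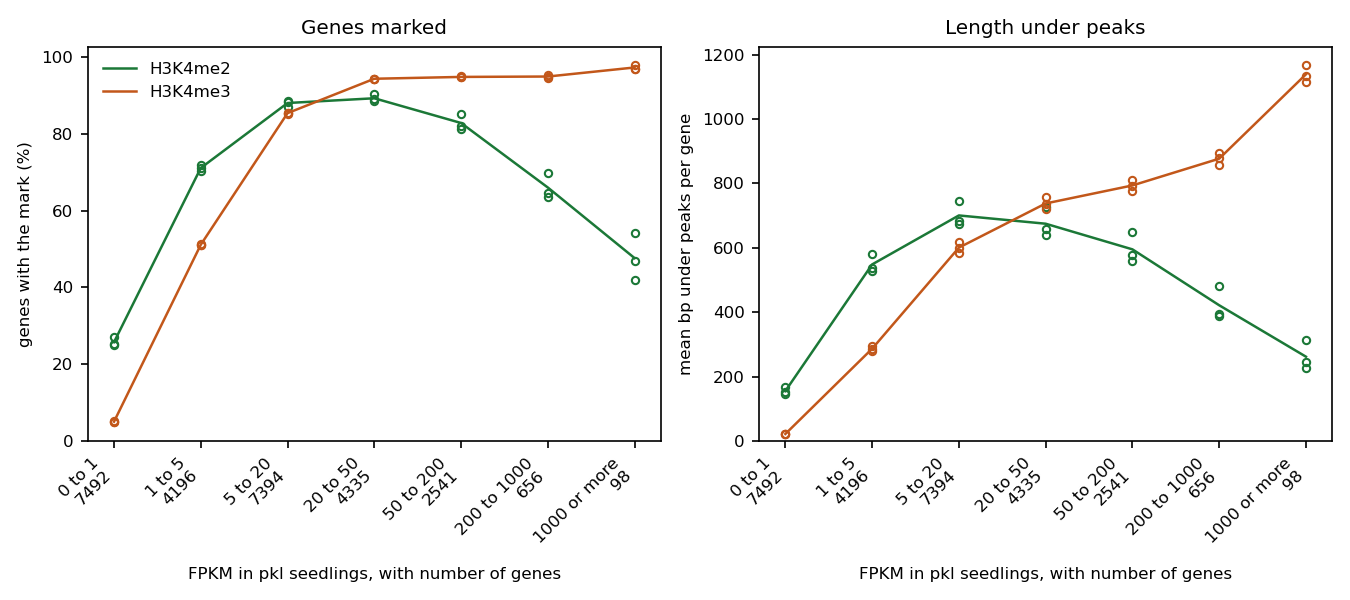
Share of protein-coding genes with at least 150 bp of a mark (left, %) and mean bp under peaks per gene (right) in WT, by FPKM in pkl seedlings (x axis, with the number of genes in each range). Circles are single libraries and lines their means; H3K4me2 is highest at moderate FPKM, and H3K4me3 bp go up at every step.

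Where H3K4me2 stood alone it lay closer to the start in bp, but not as a share of gene length. In the 2042 protein-coding genes with H3K4me2 only that overlap no other gene, its median position was 366, 346 and 353 bp, against 527, 513 and 525.5 bp in the 11327 such genes with both marks. Its 5′ edge was at 12, 26 and 24 bp, against 70, 85 and 90 bp. The 3 values of one class lay apart from those of the other in both measures. In bp, H3K4me3 was at much the same place with and without H3K4me2, at 351, 347.5 and 343.5 bp in 437 genes with H3K4me3 only and at 350, 344.5 and 342.5 bp in genes with both. The classes differ in gene length, with a median of 1714 bp for H3K4me2 only, 1470 bp for H3K4me3 only and 2367 bp for both.

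Other features separated the classes too. Monomethylation of the same residue (H3K4me1), which marks gene bodies, was present in all 3 WT libraries in 70.0% of genes with both marks, 31.7% of genes with H3K4me3 only and 17.02% of genes with H3K4me2 only, against 36.2% of all nuclear genes. A PKL peak in the gene or its 1000 bp upstream, in at least 2 of 3 WT libraries, was found at 50 genes with H3K4me3 only (8.52%), 464 with both (3.30%) and 22 with H3K4me2 only (0.934%), against 2.15% of all. In the pkl libraries of the same marks, 1726 of the H3K4me2-only genes (73.3%) and 371 of the H3K4me3-only genes (63.2%) had the same class. Another gene overlapped 21.6% of H3K4me3-only, 18.6% of both and 8.32% of H3K4me2-only genes, and a peak there cannot be given to one of the genes.

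The genes with H3K4me2 only and the most bp under it included 3 genes of cell division, CSLD5, TPX2 and PLE. CSLD5 (chromosome 1, 594573 to 598657), a cellulose synthase-like enzyme of the cell plate, had 3627, 2708 and 3126 bp under H3K4me2 and 0 bp under H3K4me3 in all 3 libraries. LTI65, also known as RD29B, a gene induced by drought and abscisic acid (chromosome 5, 21237056 to 21239529), had 2176, 2156 and 2273 bp, which is nearly the whole gene of 2474 bp. Its RNA was low, at 0.386 ± 0.103 FPKM. HEMA3, a glutamyl-tRNA reductase gene (chromosome 2, 13319621 to 13321526), was covered from end to end in 2 libraries, with 1906, 1873 and 1906 of 1906 bp, and had 20 bp under H3K4me3 in replicate 1.

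TPX2, a spindle protein, had 2047, 2149 and 2249 bp and PLE, a microtubule bundler of the cell plate, 1790, 1738 and 1718 bp. Neither had H3K4me3 in any library. The RNA levels of the 3 cell division genes were 6.26 ± 1.35 FPKM (TPX2), 6.82 ± 1.25 FPKM (PLE) and 15.8 ± 1.75 FPKM (CSLD5). The other members were HAF2, a histone acetyltransferase of the TAF1 type, the pectin methylesterase gene ATPMEPCRC, the receptor-like kinase CRK14, the receptor-like protein RLP38 and the protease gene LON4. They held between 1594 and 2686 bp of H3K4me2 in single libraries, with 0 bp of H3K4me3 in each, and their RNA was at or under 2.73 FPKM. In ATPMEPCRC, which was listed at 0 FPKM, H3K4me3 was present in all 3 pkl libraries.

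Among the 10 genes with H3K4me3 only and the most bp under it, 5 encode enzymes of carbon fixation and photorespiration, and 2 belong to the making of the cuticle. RCA (chromosome 2, 16570746 to 16573548) had 2590, 2498 and 2637 bp under H3K4me3, most of its 2803 bp, and 0 bp under H3K4me2 in all 3 libraries. CA2, a carbonic anhydrase, had 2777, 2530 and 2221 bp, and GAPB, a dehydrogenase of the Calvin cycle, 1728, 1716 and 1693 bp. GGT1 and GOX1, 2 enzymes of photorespiration, had 2100, 2340 and 2377 bp and 1925, 1920 and 1972 bp. All 5 had 0 bp of H3K4me2 in each library, with RNA from 1150 to 6609 FPKM.

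ABCG12, which exports wax, and KCS10, which makes the fatty acids of the cuticle, had 1877 to 2254 and 1845 to 2090 bp of H3K4me3. Their RNA was lower, at 99.2 ± 6.68 and 155.7 ± 5.87 FPKM. UBQ10 (chromosome 4, 2718170 to 2720308), a polyubiquitin gene, had 1734, 1761 and 1720 bp. A PKL peak lay in the gene or its 1000 bp upstream in all 3 WT libraries. RAP2.4, an AP2-type factor, was covered almost whole, with 1771, 1825 and 1799 of 1825 bp, and had 61.5 ± 4.18 FPKM. EXGT-A3, an enzyme of the cell wall, had 1656 to 1743 bp.

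The length under peaks differed between the marks in many genes, those with 1 mark only included. Of 19166 genes with a mark in at least 3 of the 6 libraries, 7194 (37.5%) had more bp under H3K4me2 and 2971 (15.5%) more under H3K4me3 (limma on log2 of bp + 100, adjusted p below 0.05). Centring each library on its median over marked genes moved the difference by 0.133 on the log2 scale, and the counts became 5743 (30%) and 4469 (23.3%). The split therefore depends on the scaling. Of the genes with more H3K4me2, 2297 had 0 bp of H3K4me3 in each library, and of those with more H3K4me3, 574 had 0 bp of H3K4me2. Genes with both marks in all libraries made up 4433 and 1945 of the calls, from 14069 tested. Genes with H3K4me2 only made up 2353 of the calls (2356 tested) and genes with H3K4me3 only 587 (587 tested). Such genes enter the test through 1 mark, so in the gene lists below their call repeats their class. Without H3K4me2 replicate 1, 2 or 3 the genes with more H3K4me2 numbered 3815, 4407 and 3933, and without H3K4me3 replicate 1, 2 or 3 those with more H3K4me3 numbered 1191, 1196 and 1303. The limit of at least 3 marked libraries was kept in these fits. Genes with 1 mark only therefore left the test when a library of that mark was left out. The genes tested numbered 16791, 16788 and 16796 without an H3K4me2 library and 18561, 18566 and 18566 without an H3K4me3 library. What else lay behind the drops was not tested.

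Among genes with both marks, the 6 with the highest ratio of H3K4me2 to H3K4me3 included RPA70D, DRP5A and TOPII, which act in DNA replication and cell division. RPA70D, a single-strand DNA binding protein (chromosome 5, 24549578 to 24552723), had 2513, 2455 and 2727 bp under H3K4me2 and 428, 214 and 249 bp under H3K4me3. DRP5A, a dynamin-related protein of the cell plate, had 1990, 1771 and 1703 bp against 394, 495 and 246 bp. BXL3, a cell wall glycosidase, had 1988 to 2147 against 251 to 434 bp, and its H3K4me3 lay near the gene's 3′ end, at 2634 to 2699 bp. LOX4, a lipoxygenase of the jasmonate pathway, GLR1.1, a glutamate receptor-like channel, and TOPII completed the 6. In each of them all H3K4me2 values were above all H3K4me3 values, as the choice requires.

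The 6 genes with the lowest ratio had long H3K4me3 peaks and a short stretch of H3K4me2. NIT1, a nitrilase (chromosome 3, 15986864 to 15989103), had 2111, 1924 and 1857 bp under H3K4me3 and 236, 223 and 211 bp under H3K4me2. CA1, another carbonic anhydrase, had 2735, 2264 and 2377 against 292, 496 and 216 bp. RPT2, a phototropism protein, and BBX21, a B-box factor of seedling light response, had 2079 to 2391 against 244 to 374 bp and 1442 to 1444 against 240 to 369 bp. GME, an enzyme of ascorbate synthesis, and CAX1, a vacuolar calcium exchanger, made up the rest, with RNA of 207.6 ± 8.07 and 183 ± 5.87 FPKM.

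Most genes of the photosynthetic apparatus carried H3K4me3, and H3K4me2 was called in none, some or all of the libraries. Of the 20 light-harvesting, photosystem and Rubisco genes in the list, 9 had H3K4me3 only, 3 had both marks, 7 had H3K4me2 in some libraries and 1 had neither. Over all nuclear genes H3K4me3 only made up 1.76% and both marks 42.2%. The lowest RNA in the list was 1507 FPKM. Among protein-coding genes of 1000 FPKM or more the shares were 37.8 and 36.7%, so H3K4me3 only was also frequent in other genes with much RNA. More bp under H3K4me3 was called in 16 of 19 tested and more under H3K4me2 in 0, against 15.5% and 37.5% of all genes, and the median log2 difference was -2.57 against 0.14 over all genes. That median depends on the added 100 bp, since 10 members had 0 bp of H3K4me2. The 9 genes with H3K4me3 only are among the 16 called. LHCB5, an antenna protein of photosystem II (chromosome 4, 6408016 to 6409677), had 1630, 1582 and 1590 bp of H3K4me3 and 0 bp of H3K4me2. LHCB6 had 1375, 1388 and 1385 bp against 445, 501 and 594 bp (log2 -1.28 ± 0.0970 SE, limma adjusted p = 0.000218). In the 3 members with both marks, LHCA1, LHCB3 and LHCB6, H3K4me2 lay 5′ of H3K4me3, by -195.9, -131 and -234.6 bp. H3K4me2 covered 879, 791 and 839 bp at LHCA1 and 717, 757 and 833 bp at LHCB3. Another gene overlaps part of LHCB3 and LHCB6, and of SHP2, WRKY53, ELF3 and PKL in the lists below, and peaks in the shared part cannot be given to one gene. CAB1, CAB2 and CAB3 and the small-subunit genes of Rubisco have near-identical copies between which reads can be split, so their values, such as 89.3 ± 25.6 bp of H3K4me3 at CAB3, are uncertain.

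The housekeeping list looked much the same. H3K4me3 only was found in 7 of 12 genes, against 1.76% of all. The median RNA of the list was 333 FPKM, and H3K4me3 only made up 17.4% of protein-coding genes from 200 to 1000 FPKM. More bp under H3K4me3 was called in 10 of 12 tested, against 15.5% of all genes, and more under H3K4me2 in 0, against 37.5%. The 7 genes with H3K4me3 only are among these 10. ACT2, an actin gene (chromosome 3, 6474842 to 6477204), had 874, 876 and 860 bp of H3K4me3 and 0 bp of H3K4me2. GAPC1, a cytosolic dehydrogenase of glycolysis, had 1093, 1104 and 1229 bp and also 0 bp. Its close copy GAPC2 had 2193, 2044 and 2068 bp of H3K4me3, and 0, 285 and 0 bp of H3K4me2. Reads of tubulin, actin and polyubiquitin copies can also be shared. Cytosolic ribosomal protein genes, 48 by their symbols, had H3K4me3 only in 10 (20.8%) and H3K4me2 only in 0, against 1.76% and 7.07% of all genes. With a median RNA of 266 FPKM, they were near the 17.4% with H3K4me3 only from 200 to 1000 FPKM. Of 46 tested, 23 (the 10 with H3K4me3 only among them) were called for more H3K4me3 and 2 for more H3K4me2, against 15.5% and 37.5%. Their H3K4me2 lay further 3′ in 19 of the 25 tested for position, against 68.9% of all genes.

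Genes for other organs and stages carried H3K4me2 alone or no mark. In the floral list of 14 genes, H3K4me3 was at 0 bp in all 3 libraries of every member. LFY, the regulator of flower meristem identity (chromosome 5, 24844295 to 24846933), had 1229, 1070 and 790 bp of H3K4me2, and WUS, the stem cell factor of the shoot meristem, had 360, 366 and 407 bp. SHP2 and AGL8 (FRUITFULL) were the other 2 members with H3K4me2 only, and 8 genes, among them AG, AP1 and SEP3, had neither. The 17 seed and embryo genes also had 0 bp of H3K4me3 throughout, with H3K4me2 only in 5 and neither mark in 11. Over all nuclear genes H3K4me2 only made up 7.07% and neither mark 39.2%, and over protein-coding genes 8.31% and 26.6%. The median RNA was 0.0819 FPKM in the floral and 0.0452 FPKM in the seed list. Among protein-coding genes under 1 FPKM, H3K4me2 only made up 16.4% and neither mark 70.5%. The shares with neither mark in the floral and seed lists, 57.1 and 64.7%, were thus not above that of genes with little RNA. LEC1, the embryo regulator, had 677, 630 and 518 bp and WOX2, a factor of the early embryo, 992, 893 and 847 bp. ABI3, LEC2 and the seed storage gene CRA1 had 310.7 ± 131.0, 388 ± 57.5 and 358 ± 39.1 bp, while the oleosin, 2S albumin and EM genes of the list had 0 bp of either mark.

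The boundary genes CUC1, CUC2 and CUC3, which set the borders between organs, had H3K4me2 only, with 1462, 1177 and 791 bp at CUC1 and 845, 769 and 837 bp at CUC2. KNAT1, a homeobox gene of the stem, was the reverse, with 258, 316 and 266 bp of H3K4me3 and 0 bp of H3K4me2. CLV1, a receptor kinase of the meristem, carried both marks at nearly the same length, 2459, 2455 and 2478 bp against 2412, 2431 and 2388 bp (limma adjusted p = 0.533). In the root list of 13 genes PLT2 and SMB had H3K4me2 only, 5 genes had both and 5 had neither, against 7.07, 42.2 and 39.2% of all nuclear genes.

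The relatives of FLC, which represses flowering, did not share one pattern. FLC itself (chromosome 5, 3173497 to 3179448) had 794, 628 and 545 bp of H3K4me2 and 372, 402 and 328 bp of H3K4me3 (log2 0.68 ± 0.140 SE, limma adjusted p = 0.0115). MAF1 had H3K4me3 only, with 727, 677 and 639 bp. MAF4 and MAF5 had H3K4me2 only, with 1145, 987 and 1158 bp at MAF4. MAF3, next to MAF4 on chromosome 5, had both marks, with more H3K4me3 (log2 -0.63 ± 0.143 SE, adjusted p = 0.0168 by limma) and H3K4me2 458 ± 36.6 bp further 3′ (SE, limma adjusted p = 0.000219). SOC1, listed as AGL20, had both marks at like length (adjusted p = 0.0579, limma), and FT and TSF, which encode the flowering signal, had neither.

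**Figure D5:**
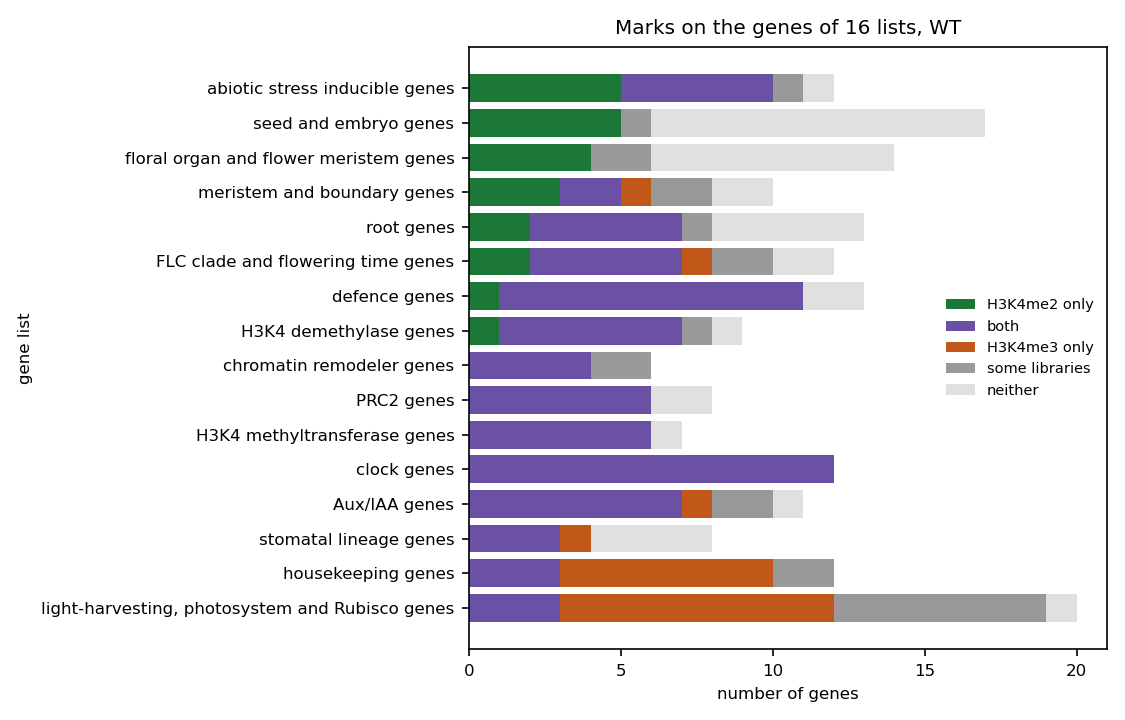
Number of genes (x axis) in 16 gene lists (y axis) by the marks they carried in the 6 WT libraries: at least 150 bp in all 3 libraries of a mark and in none of the other, in all 6, in some, or in none. By count, H3K4me3 only is highest for light-harvesting (9) and housekeeping genes (7), and H3K4me2 only for stress and seed genes (5 each) and floral genes (4), in lists of different size.

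In the stress and defence lists more genes were called for H3K4me2 than for H3K4me3. In the abiotic stress list, 5 of 12 had H3K4me2 only, namely LTI65, COR15A, CBF1, HSP17.6II and HSP18.2. Over all nuclear genes the share was 7.07%, and over protein-coding genes of 1 to 5 FPKM 15.2%, the median of the list being 3.77 FPKM. More bp under H3K4me2 was called in 10 of 11 tested, against 37.5% of all genes. These 5 are among the 10, so the counts are not separate. CBF1, a regulator of the cold response, had 727, 658 and 651 bp and CBF2, from the same cluster on chromosome 4, had 792, 617 and 802 bp of H3K4me2 with 320, 225 and 222 bp of H3K4me3. LTI78 (RD29A), next to LTI65 on chromosome 5, had 2459, 2422 and 2359 bp against 1443, 1131 and 821 bp (log2 1.06 ± 0.194 SE, limma adjusted p = 0.00771). COR47, the most abundant transcript of the list, did not pass (adjusted p = 0.101, limma). With centring COR47 was called for more H3K4me3 (limma adjusted p = 0.0122). The CBF genes are close copies, and reads may be split among them.

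Of 13 defence genes, 10 had both marks (76.9%), against 42.2% of all nuclear genes. The share was near the 78.5% of protein-coding genes from 5 to 20 FPKM, the median of the list being 17.2 FPKM. More H3K4me2 was called in 7 of 11 tested, against 37.5% of all genes, and in 6 with centring, against 30%. More H3K4me3 was called in 0, against 15.5% of all genes, and H3K4me2 lay further 3′ in 7 of 10, near the 68.9% of all genes. WRKY53, a factor of defence and senescence, had 1028, 1004 and 1023 bp against 377, 374 and 362 bp (log2 1.25 ± 0.0415 SE, limma adjusted p = 5.59e-06). PAD4, a partner of EDS1 in immune signalling, had a shift of 655 ± 92.9 bp (SE, adjusted p = 0.00147 by limma). PR5 had H3K4me2 only, with 999, 777 and 926 bp, although its RNA was at 40.6 FPKM. Receptor-like kinases, 148 by their symbols, had H3K4me2 only in 32 (21.6%) and H3K4me3 only in 2 (1.35%), against 7.07% and 1.76% of all nuclear genes and 8.31% and 2.04% of protein-coding genes. In the 232 cytochrome P450 genes these counts were 26 (11.2%) and 5 (2.16%), nearer to the shares of all genes.

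Clock genes carried both marks in all 12 cases, against 42.2% of all nuclear genes and 51.5% of protein-coding genes. Among protein-coding genes of 5 to 20 and 20 to 50 FPKM the shares were 78.5 and 81.5%. CCA1, a MYB factor of the morning (chromosome 2, 19245672 to 19248914), had 1225, 1117 and 1192 bp of H3K4me2 and 853, 869 and 809 bp of H3K4me3 (log2 0.44 ± 0.0558 SE, limma adjusted p = 0.00194). More bp under H3K4me2 was called in 7 of 12 and more under H3K4me3 in 0, against 37.5% and 15.5% of all genes. With centring the counts were 6 and 1, against 30% and 23.3%. H3K4me2 lay further 3′ in 9 of 12, against 68.9% of all genes, with a median shift of 188 bp against 163.7 bp. ELF3, a member of the evening complex, had the largest shift of the list at 581 ± 45.3 bp (SE, adjusted p = 0.000203, limma). For PRR5 the shift was 1.64 ± 26.6 bp (SE, limma adjusted p = 0.960), and the lengths, 1284, 1328 and 1355 bp against 1344, 1280 and 1429 bp, overlapped.

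In most genes for the writers and erasers of the marks H3K4me2 lay further 3′. This was called in 6 of 7 H3K4 methyltransferase genes and in 7 of 7 H3K4 demethylase genes tested for position, against 68.9% of all genes. Many of the genes in this paragraph are long, and the share was higher in long genes. Among protein-coding genes that overlap no other gene it was 77.5% from 2000 to under 4000 bp. It was 81.8% from 4000 to under 8000 bp and 91.1% at 8000 bp or more. SDG2, the main H3K4 trimethylase, had a shift of 610 ± 57.4 bp (SE, limma adjusted p = 0.000350), and SDG16 had 1099, 1018 and 1045 bp of H3K4me2 against 477, 474 and 445 bp of H3K4me3. Another gene lies within JMJ18, a JmjC demethylase gene counted among the 7, so that its peaks cannot be given to one of them. LDL3, also among the 7, had both marks at mean positions upstream of its start, -118 bp for H3K4me2 and -233 bp for H3K4me3. All 6 PRC2 genes and all 4 chromatin remodeler genes tested for position also had H3K4me2 further 3′. PKL itself had 631, 544 and 582 bp of H3K4me3 and 0, 0 and 302 bp of H3K4me2. CHR1 (DDM1), which keeps transposons methylated, had 1680, 1169 and 1354 bp against 493, 385 and 395 bp.

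Aux/IAA genes, repressors of auxin response, had no member called with H3K4me2 further 3′. More bp under H3K4me3 was called in 5 of 8 tested and more under H3K4me2 in 1, against 15.5% and 37.5% of all genes. H3K4me2 lay further 5′ in 3 of 7, against 4.52% of all genes, and further 3′ in 0, against 68.9%, with a median shift of -63 bp. SHY2 (IAA3) had a shift of -187 ± 17.9 bp (SE, limma adjusted p = 0.000368) and IAA2 one of -63 ± 15.9 bp (SE, limma adjusted p = 0.0132). IAA14 had H3K4me3 only, with 987, 1257 and 918 bp.

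Neither mark was the rule in several other gene types. Of 88 defensin-like genes, with a median of 0 FPKM, 85 had neither, against 39.2% of all nuclear genes and 70.5% of protein-coding genes under 1 FPKM. So had all 623 tRNA genes, but each of these is shorter than 150 bp and could not pass the threshold. Of 4818 genes that RefSeq lists as pseudogenes, 4500 had neither mark, 113 had H3K4me2 only, 101 both and 10 H3K4me3 only. Over all nuclear genes the shares were 39.2, 7.07, 42.2 and 1.76%.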

How the data were processed

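ChIP-seq peak lists of H3K4me2 and H3K4me3 from WT seedlings, 3 libraries each, were grouped by the labels' antibody and genotype. Per the submitters' processing notes, MACS2 2.2.5, Bowtie2 2.3.3, HISAT2 2.1.0, SAMtools 1.6, deepTools and fastp were used with the TAIR10 genome; the role of each is not said. In the deposited lists, each peak has a score, a ratio (fold enrichment), −log10 p, −log10 q and a summit, all as the authors gave them. The lists end at −log10 q of 1.30 to 1.33. The control library and the handling of reads that map to several places are not given in the sources used here. The authors' RNA count table gives raw counts per gene and the exons, from which gene spans were taken. The authors' deposited FPKM of pkl were averaged over 3 libraries with total counts of 17300314 to 17656899. Another 6 columns of RNA values match no sample label and were not used. Of 33610 genes, 33331 nuclear ones were kept, and 32816 matched a RefSeq table (TAIR10.1) that gave symbols and gene types.

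Values are lengths called as enriched, not amounts of signal. The length of a gene under peaks was taken in each library (at least 150 bp counting as marked). Genes marked in at least 3 of 6 libraries were tested with limma 3.58.1 on log2 of bp + 100. Positions were tested likewise in bp. Library values were compared by exact permutation over 20 splits. The p-values measure the spread between these libraries. The fits were tested on simulated data. Alternatives were stricter peaks, equal peak numbers, other thresholds, other added bp, centring, a replicate block and leaving out each library. The splits by first exon and gene length were added after the data were seen.

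The members and gene lists were chosen with earlier results of these data known. Genes were named by these rules, among protein-coding genes with a symbol that overlap no other gene: the 10 with the most bp in their lowest library in each class with 1 mark only, the 8 and 6 with the largest 3′ and 5′ shifts among called genes without overlap, the 6 highest and 6 lowest bp ratios among called genes with both marks, and members of 16 lists (184 genes). Families were taken from RefSeq symbols and synonyms. Promoter sequences were not used here.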

Additional observations from a re-analysis of the deposited data

How the results depend on the processing

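Under each alternative tried, H3K4me2 lay further 3′ in more genes than 5′, and the differences in summit distance and in peaks over gene starts kept their sign. Stricter peaks hit H3K4me2 harder. Keeping only peaks with −log10 q of 10 or more, the difference of H3K4me2 minus H3K4me3 was -5960 peaks, -4.02 Mb, 106 bp in median width, 0.0515 percentage points in peaks over gene ends, 29.3 points in peaks overlapped by the other mark and 18.7 points in covered bp under it, each of the opposite sign to the values with all peaks. With 15000 peaks a library the differences that turned round were -0.0890 Mb, 27.3 bp, 1.75 points and 0.454 points. Counts at −log10 q of at least 10 were 1379 genes with H3K4me2 only and 6031 with H3K4me3 only. Of 16825 genes tested there, 3616 (21.5%) had more bp under H3K4me2 and 6348 (37.7%) more under H3K4me3. Of 4506 tested for position, H3K4me2 lay further 3′ in 2563 (56.9%) and further 5′ in 428 (9.50%). With equal peak numbers 2279 had H3K4me3 only, and 6246 of 9317 tested (67.0%) lay further 3′. Centring gave 4469 genes with more H3K4me3 (23.3% of 19166 tested). The 5′ edge in place of the mean position gave 1593 genes further 5′ (10.9% of 14607). Removing peaks left fewer genes with both marks to test; beyond that the cause was not tested.

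Leaving out 1 library gave 3815 to 6086 genes with more H3K4me2, 1191 to 3362 with more H3K4me3, 8825 to 10258 further 3′, 515 to 697 further 5′, 2439 to 2564 with H3K4me2 only and 602 to 805 with H3K4me3 only. Differences between marks over the same settings ran from 3573 to 3930 peaks, from 1.21 to 2.04 Mb, from -56.2 to -22.2 bp in median width, from -35.7 to -30.9 points over gene starts and from 154 to 160 bp in summit distance. Of 95 list genes called by bp, 62 to 68 kept the call without 1 library, 20 to 23 no longer being tested. Of 54 called by position, 45 to 52 kept it. With −log10 q of at least 10, 61 of the 95 kept the bp call and 6 had the other sign, 2 of them called. By position 22 of the 54 kept the call there, with 30 not tested, and by the 5′ edge 26 kept it and 13 had the other sign, 5 of them called.

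With the replicate number as a block, 6412 and 2417 genes had more bp under H3K4me2 and H3K4me3, and 9809 and 591 lay further 3′ and 5′. Same-numbered libraries of the 2 marks correlated at 0.0612 to 0.0993 in their deviations, each best with its own number, which is a hint from the data and below the 0.1 set for pairing.

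Among the genes picked by rule, log2 of bp at GLR1.1 was -0.75 with stricter peaks, and the shift of ABCC3 was -11.7 bp there. By the 5′ edge alone, H3K4me2 began upstream of H3K4me3 at CalS7 (-143 bp), GSL04 (-127 bp), ABCC3 (-165 bp) and TOPII (-279.7 bp), and downstream at GCT (265 bp) and NRPA2 (21.3 bp). By the 3′ edge, ABCG40 (159 bp) and ADAP (30.3 bp) turned round. Depth of the ChIP libraries is unknown, so an absent peak is one that was not called.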
